A study of Rattus norvegicus with 25 samples.

Results

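Trapidil at 15 mg/kg BID, given together with levodopa at 6 mg/kg QD, was compared with levodopa at 6 mg/kg QD alone across all genes of the lesioned rat striatum. The libraries were taken by their labels, 10 from animals given the combination and 5 from animals given levodopa alone, which is 15 of the 25 libraries of the series. All animals were female Sprague Dawley rats with a lesion made by 6-hydroxydopamine (6-OHDA), a toxin that destroys dopamine neurons and is used to model Parkinson's disease. The other 10 animals received trapidil at 7.5 mg/kg BID beside that levodopa dose. Their libraries share in the estimate of the spread, and their levels are given beside some results. Dosing ran for 14 days and the striatum on the lesioned side was collected on day 15, at a time the labels give as 1 hour of dosing without saying before or after. The series title also names benserazide, which blocks the conversion of levodopa to dopamine outside the brain. The lesion and levodopa were common to every group, so the comparison measures neither, and the age of the animals is not given in the sources used here.

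Dopamine made from levodopa acts on D1 receptors of striatal spiny projection neurons, the main neurons of this tissue. Through cyclic AMP, protein kinase A and the ERK kinases, these receptors switch on immediate early genes, whose transcripts appear soon after a stimulus and fade soon after it. Once dopamine is lost this response to levodopa becomes exaggerated. Trapidil blocks the action of platelet-derived growth factor (PDGF) and inhibits phosphodiesterases, the enzymes that break down cyclic AMP. Bundles of myelinated axons, blood vessels, astrocytes and microglia are also part of the striatum, and in bulk tissue fewer cells of a type and less RNA per cell cannot be told apart.

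Values are CPM, the counts of a gene scaled to a common library total, TMM normalization. Sums over a gene list are scaled by the library total alone, without TMM. The levodopa libraries held between 16535828 and 19274429 counts over all genes and the 15 mg/kg libraries between 13862132 and 20532290. An exact two-sided permutation test of the difference in means gave p = 0.766, also after adjustment over 3 library values. The defining markers of the striatum were abundant in all 15 libraries. Ppp1r1b, which encodes the signalling integrator DARPP-32, lay between 3366 and 5744 CPM with levodopa and between 4357 and 5427 CPM with trapidil. Th, which marks dopamine neurons, whose cell bodies lie outside the striatum, stayed at or below 2.36 CPM, so it does not check the lesion. The levodopa replicate 2 stood apart from the rest. Its mitochondrially encoded genes took 17.3% of the counts, against 7.62 to 13.5% in the other 14 libraries. Over the arms this share gave an exact permutation p = 0.691, and p = 0.0400 without that library, before adjustment over the 3 library values. In replicate 2 the spiny projection neuron markers summed to 11140.1 CPM, against 16446 to 20153 CPM elsewhere. Its endothelial markers summed to 1636 CPM, against 801 to 1087 CPM in the other 14. Each comparison was also run without this library, and many of the values without it are given beside the results.

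Immediate early genes are often switched on through a cyclic AMP response element in the promoter, and 3 promoters of genes that fell with 15 mg/kg are shown for that reason. Each runs from 250 bases before the annotated start to 50 after it, taken from RefSeq on the GRCr8 assembly, and is printed 5′ to 3′ on the gene's own strand. Capitals mark the cyclic AMP response element TGACGTCA, the AP-1 motif TGANTCA and the E-box CACGTG, searched on both strands. The Ppp1r15a promoter lies at chr1:105139547-105139846 (minus strand), that of Btg2 at chr13:48087641-48087940 (minus strand) and that of Dusp2 at chr3:135009386-135009685 (plus strand).
Ppp1r15a: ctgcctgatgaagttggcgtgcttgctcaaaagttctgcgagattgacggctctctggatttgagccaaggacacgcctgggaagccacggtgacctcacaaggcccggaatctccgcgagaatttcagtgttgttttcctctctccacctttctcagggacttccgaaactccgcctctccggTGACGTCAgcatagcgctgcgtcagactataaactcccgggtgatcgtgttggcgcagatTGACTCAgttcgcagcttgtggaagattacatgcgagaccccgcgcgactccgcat
Btg2: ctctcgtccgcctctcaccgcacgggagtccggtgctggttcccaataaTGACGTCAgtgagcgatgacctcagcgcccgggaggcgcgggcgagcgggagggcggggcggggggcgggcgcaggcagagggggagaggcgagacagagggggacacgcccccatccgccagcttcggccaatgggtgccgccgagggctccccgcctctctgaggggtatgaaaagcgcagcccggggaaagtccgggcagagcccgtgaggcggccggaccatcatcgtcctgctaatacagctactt
Dusp2: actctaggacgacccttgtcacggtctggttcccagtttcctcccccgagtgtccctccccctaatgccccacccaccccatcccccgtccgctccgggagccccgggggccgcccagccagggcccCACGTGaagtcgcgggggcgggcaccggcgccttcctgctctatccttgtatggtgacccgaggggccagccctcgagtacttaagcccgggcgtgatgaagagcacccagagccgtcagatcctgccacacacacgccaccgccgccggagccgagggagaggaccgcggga
Positions are those of a motif's first base, counted from the annotated start. In Ppp1r15a the response element began at -66 and the AP-1 motif at -6. The element of Btg2 began at -201. The Dusp2 window held an E-box at -123 and no full response element. The windows of Dusp6, Gadd45g, Trim59 and Smad7, which also fell, held no full element either and are not shown. Promoters were matched for 9786 of the 14142 genes tested, and 3.12% of those held the full response element. It was found in 3 of the 101 matched genes that fell (2.97%) and in 6 of the 28 matched genes of the immediate early list (21.4%). The E-box was found in 9.30% of all matched promoters and in 6 of the 28 matched genes that rose (21.4%). Of the clock genes that rose, Per1 and Per2 held no E-box in this window and Cry1 was not matched. The shorter core TGACG was found in 31.3% of all matched promoters. It was in 19.8% of the matched genes that fell and 14.3% of those that rose. A match of letters is a description of the window and not a measured binding site.

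With 15 mg/kg, 142 genes were lower (1.00% of the 14142 tested) and 43 were higher (0.304%) at an adjusted p below 0.05 in edgeR's quasi-likelihood test, together 185 genes (1.31%). The lower genes included myelin genes such as Opalin and Tspan2, endothelial genes such as Aplnr and Sox18 and immediate early genes such as Jun, Arc and Btg2, and the higher genes included the clock genes Per1, Per2 and Cry1. Most changes were small. The median log2 fold change of the lower genes was -0.49 and that of the higher genes 0.45, and 13 lower and 4 higher genes passed a log2 fold change of 1 in size. The median over all genes tested was 0.0007. The ranges of the arms did not overlap at all for 58 genes lower with trapidil (0.410%) and 42 genes higher (0.297%), and 35 and 17 of these were among the called genes.

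**Figure D1:**
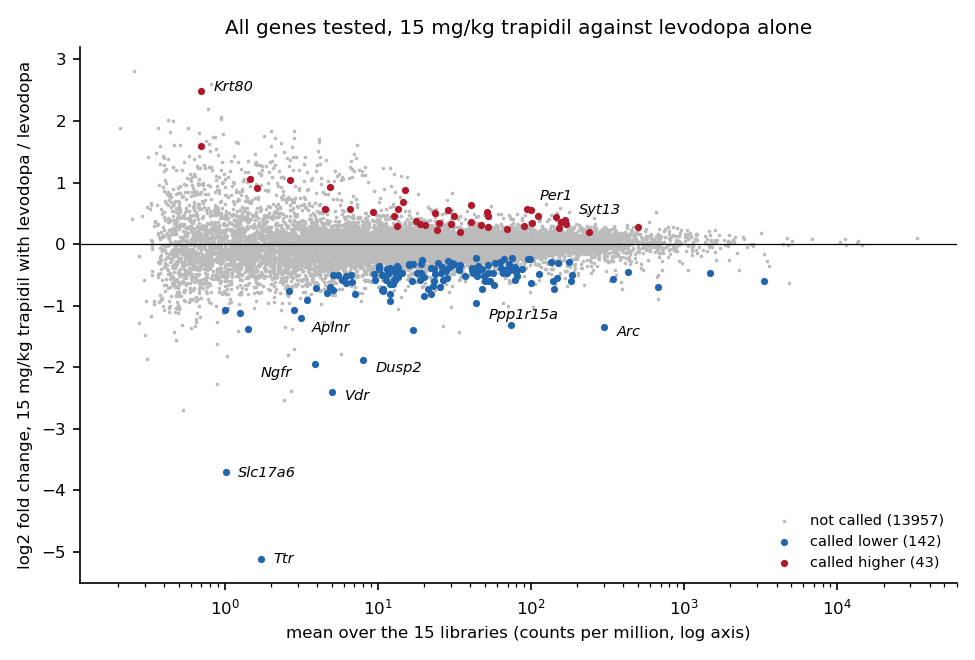
Each point is a gene, with its mean over the 15 libraries in CPM on a log axis and its log2 fold change for 15 mg/kg trapidil with levodopa against levodopa alone. The 142 genes called lower are blue and the 43 called higher are red. Ttr and Slc17a6 are the lowest points, and their fold changes rest on levodopa replicate 2.

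How many genes passed depended on single libraries. Without levodopa replicate 2, 19 genes were lower and 1 higher, and 12 and 1 of these were among the called genes. Without levodopa replicate 3, 8 were lower and 1 higher. Without levodopa replicate 4, 515 were lower and 379 higher, and without the 15 mg/kg replicate 4 the counts were 323 and 114. Leaving out the levodopa replicates 1 and 5 gave 95 and 159 lower and 32 and 41 higher genes. For the other 15 mg/kg replicates the count of lower genes without each was 76 (replicate 1), 93 (2), 39 (3), 104 (5), 59 (6), 60 (7), 73 (8), 41 (9) and 67 (10), and that of higher genes was 23, 27, 12, 28, 18, 19, 17, 13 and 19 in the same order. The levodopa replicate 2 was the highest of the 15 libraries in 105 of the 142 lower genes and the lowest in 27 of the 43 higher genes. Without it the median of the lower genes was -0.43 and that of the higher genes 0.39, and the fold change of 20 of the 142 lower and 0 of the 43 higher genes moved by over 1.5 times. With 2 surrogate variables estimated from the data in the model, 11 genes were lower and 1 higher, of which 2 and 1 were among the called genes.

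**Figure D2:**
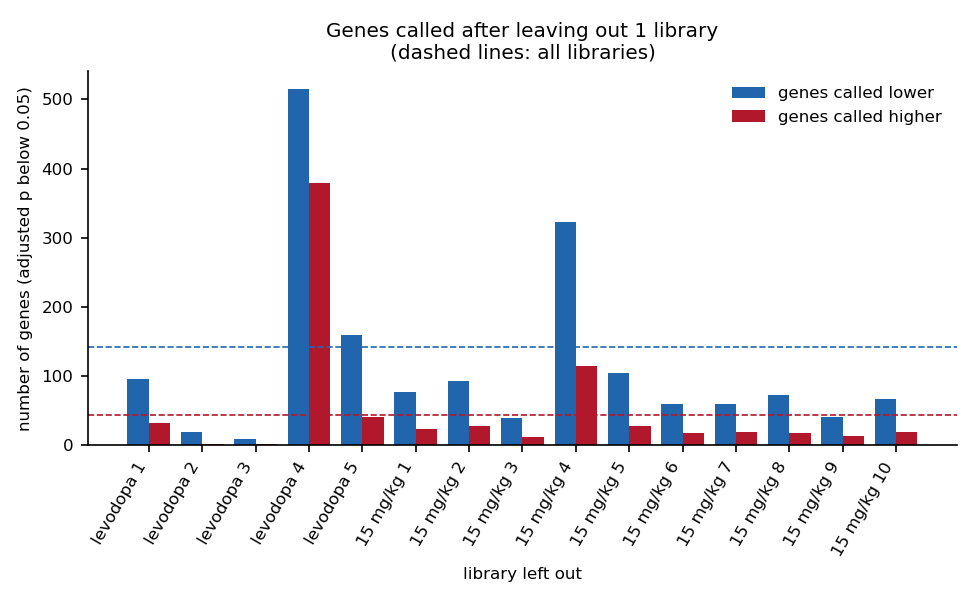
Bars give the number of genes called lower (blue) and higher (red) at an adjusted p below 0.05 after leaving out the library named under them. Dashed lines mark the 142 and 43 genes called with all libraries. The counts run from 8 to 515 for lower genes and from 1 to 379 for higher genes.

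Called in every one of the 15 fits that left out 1 library were 5 genes, with Ppp1r15a, Dusp2, Aplnr and Trim59 lower and Syt13 higher. With the 2 surrogate variables Ppp1r15a, Aplnr and Syt13 were called (adjusted p = 0.0128, 0.0128 and 0.0293), while Dusp2 gave -1.34 (adjusted p = 0.0652) and Trim59 -0.51 (adjusted p = 0.0656). Ppp1r15a (also known as GADD34) encodes the inducible subunit that directs protein phosphatase 1 to the translation factor eIF2α and so ends the integrated stress response. Its levels in the levodopa replicates 1 to 5 were 69.8, 52.7, 87.2, 37.5 and 74.7 CPM. In the 15 mg/kg arm they ran from 29.8 to 38.5 with a median of 32.3 CPM. The trapidil libraries lay closely together, and 4 of the 5 levodopa libraries lay above all of them, while levodopa replicate 4 lay inside their range. The SD was 19.5 CPM with levodopa and 3.08 CPM with 15 mg/kg. The fit shares 1 spread per gene over all arms, so its standard errors can understate the spread of the levodopa animals. Ppp1r15a fell (log2 fold change -0.95 ± 0.12, adjusted p = 0.000377), and across the fits without 1 library the fold change stayed between -1.10 and -0.82. It was as low in the 7.5 mg/kg arm, compared with the same levodopa libraries, at 33.1 ± 4.80 CPM (SD, n = 10, log2 fold change -0.96 ± 0.12, adjusted p = 0.00033). Its constitutive relative Ppp1r15b was also lower (log2 fold change -0.24 ± 0.059, adjusted p = 0.0412), a call that 4 of the 15 fits kept and that gave -0.16 (adjusted p = 0.2) without levodopa replicate 2. These 2 genes were the called members of 20 tested integrated stress response genes, against 1.00% of all genes called lower. The median of that list was -0.13 (-0.045 without levodopa replicate 2).

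Dusp2 encodes a nuclear phosphatase that switches off ERK kinases and is itself induced by them. The levodopa replicates gave 11.2, 9.69, 24.5, 4.70 and 26.9 CPM, and the 15 mg/kg libraries ran from 2.97 to 5.14 with a median of 4.30 CPM. Levodopa replicate 4 again lay among the trapidil libraries and the other 4 lay above them. The fall was the steepest of the 5 genes (log2 fold change -1.88 ± 0.27, adjusted p = 0.000927), with -2.002 (adjusted p = 0.000864) without levodopa replicate 2 and -1.65 (adjusted p = 0.0152) without replicate 3. Dusp2 was also lower in the 7.5 mg/kg arm, at 4.97 ± 2.13 CPM (SD, n = 10, log2 fold change -1.65 ± 0.27, adjusted p = 0.0130). Dusp6, a cytoplasmic ERK phosphatase, was lower as well (log2 fold change -0.81 ± 0.17, adjusted p = 0.0217), from a mean of 30.8 ± 8.45 CPM (SD, n = 5) to 17.6 ± 2.90 CPM (SD, n = 10). That call was lost without the levodopa replicates 1, 2 or 3, with adjusted p up to 0.0634 and a fold change of -0.68 at the weakest. These 2 phosphatases were the 2 called members of 18 tested genes of the ERK feedback list, against 1.00% of all genes called lower. The median of that list was -0.041 (0.011 without levodopa replicate 2). Among the members that did not pass were Etv5 (0.31 ± 0.083, adjusted p = 0.0532) and Spred1 (0.34 ± 0.10, adjusted p = 0.0691), a growth factor induced transcription factor and an inhibitor of Ras signalling.

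Aplnr encodes the receptor for apelin, found on endothelial cells. With levodopa it was at 4.02, 7.65, 4.00, 4.75 and 4.78 CPM and with 15 mg/kg it ran from 1.52 to 2.76 with a median of 2.03 CPM. The arms did not overlap, and levodopa replicate 2 was the highest library. Aplnr fell (log2 fold change -1.20 ± 0.17, adjusted p = 0.000927), and without that library the fold change was -0.999 (adjusted p = 0.0076). In the 7.5 mg/kg arm, which is compared with the same levodopa libraries, its mean was 3.23 ± 0.754 CPM (SD, n = 10). It did not pass at that dose (log2 fold change -0.65 ± 0.17, adjusted p = 0.150). Its ligand gene Apln was at 38.3 ± 8.48 and 42.2 ± 4.36 CPM in the levodopa and 15 mg/kg arms and did not pass (0.14 ± 0.10, adjusted p = 0.458).

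Trim59, of the tripartite motif family of ubiquitin ligases, was at 16.6, 17.8, 18.5, 16.5 and 12.6 CPM with levodopa and ran from 8.52 to 12.6 with a median of 10.6 CPM with 15 mg/kg. The arms met at levodopa replicate 5, just inside the trapidil range, and the other 4 levodopa libraries lay above it (log2 fold change -0.65 ± 0.10, adjusted p = 0.00363, and -0.62 (adjusted p = 0.0136) without levodopa replicate 2). The 7.5 mg/kg mean of Trim59 was 12.3 ± 1.46 CPM (SD, n = 10), which did not pass against levodopa (log2 fold change -0.42 ± 0.10, adjusted p = 0.136). Syt13, a synaptotagmin that is known not to bind calcium in the way of the family's release sensors, moved the other way. Its levodopa libraries lay within a narrow band, at 148, 143, 148, 147 and 137 CPM, and its 15 mg/kg libraries ran from 164 to 201 with a median of 183 CPM. No library of one arm reached into the other. The rise was small but larger than the spread within the arms (log2 fold change 0.33 ± 0.057, adjusted p = 0.00928), and it was 0.32 (adjusted p = 0.0158) without levodopa replicate 2. The 7.5 mg/kg mean of Syt13 was 171 ± 13.2 CPM (SD, n = 10), which did not pass against levodopa (log2 fold change 0.24 ± 0.057, adjusted p = 0.134). Syt13 was the only called member of 36 tested synaptotagmin and exocytosis genes, against 0.304% of all genes called higher. The median of that list was 0.06 and turned to -0.013 without levodopa replicate 2.

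**Figure D3:**
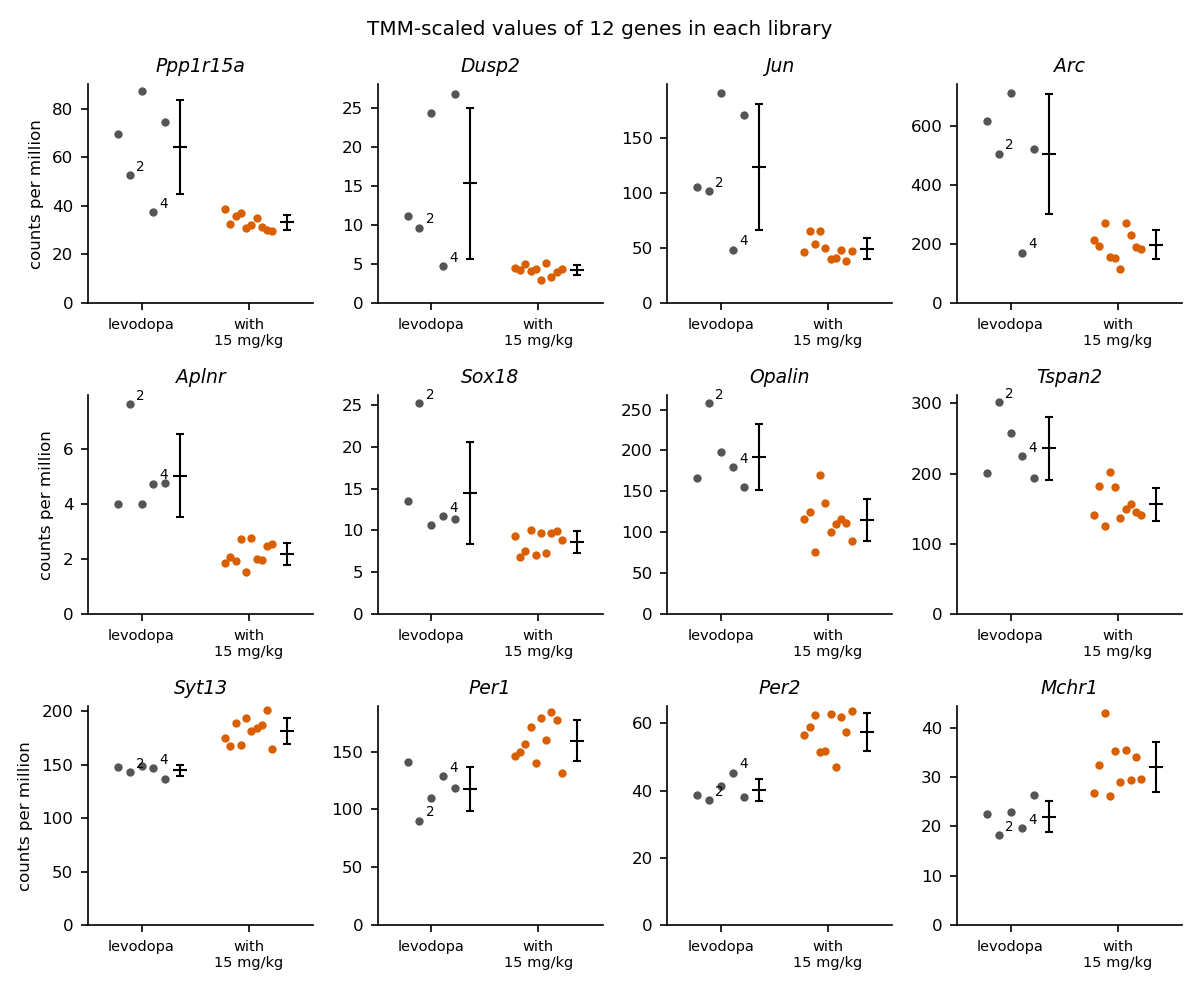
Dots are single libraries of the levodopa arm (grey, n = 5) and the 15 mg/kg arm (orange, n = 10) in TMM-scaled CPM, with the mean and SD beside them, and the levodopa replicates 2 and 4 are numbered. For Ppp1r15a, Dusp2, Jun and Arc replicate 4 lies among the trapidil libraries, and for Sox18 and Aplnr replicate 2 is the highest.

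The next genes by p were Jun, Smad7 and Btg2, which were called in 14 of the 15 fits and lost their call without levodopa replicate 3. Jun, which pairs with Fos proteins to form the AP-1 transcription factor, was at 106, 101, 191, 48.4 and 171 CPM with levodopa and ran from 38.4 to 65.1 with a median of 47.6 CPM with 15 mg/kg. Replicates 3 and 5 were high and replicate 4 lay among the trapidil libraries. Jun fell by 1.32 on the log2 scale (SE 0.22, adjusted p = 0.00751), and without replicate 3 the value was -1.11 (adjusted p = 0.0543). Btg2, an early gene that restrains cell division, went from 31.3, 27.5, 43.7, 13.5 and 27.4 CPM to a range from 8.63 to 15.3 with a median of 10.3 CPM (log2 fold change -1.39 ± 0.25, adjusted p = 0.0106, and -1.18 (adjusted p = 0.0551) without replicate 3). Smad7 is an inhibitor inside cells of TGF-beta signalling that the pathway itself induces. It was at 95.5, 70.3, 87.5, 64.4 and 81.5 CPM with levodopa and ran from 48.1 to 64.02 with a median of 59.4 CPM with 15 mg/kg, and the arms did not overlap (log2 fold change -0.46 ± 0.082, adjusted p = 0.0105). Without replicate 3 its value was -0.43 (adjusted p = 0.0543). Klhl4, of the kelch-like family, was chosen after its values were seen because it followed the same pattern (log2 fold change -0.48 ± 0.10, adjusted p = 0.0217, and -0.39 (adjusted p = 0.0725) without replicate 3). Jun, Smad7, Btg2 and Klhl4 gave -1.38, -0.50, -1.40 and -0.53 without levodopa replicate 2 and were called (adjusted p = 0.0076, 0.0076, 0.0173 and 0.0327).

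Of 39 tested immediate early genes, 6 fell and 1 rose, against 1.00% and 0.304% of all genes, and the list's median was -0.26 (-0.26 without levodopa replicate 2, -0.12 without replicate 3, -0.37 without replicate 4). The 6 were Ppp1r15a, Jun, Btg2, Csrnp1, Gadd45g and Arc. Without replicate 2, 3 members were lower, without replicate 3, 1 was, and without replicate 4, 11 were. Arc, whose product regulates AMPA receptors at active synapses, was at 615, 506, 710.2, 171 and 521 CPM with levodopa. With 15 mg/kg it ran from 117 to 272 with a median of 192 CPM. Again the levodopa replicate 4 was low and lay within the trapidil range, while the other 4 lay above it (log2 fold change -1.35 ± 0.33, adjusted p = 0.0414). The Arc call was kept in 2 of the 15 fits, with -1.35 (adjusted p = 0.126) and -1.20 (adjusted p = 0.0936) without levodopa replicates 2 and 3. The mean of Arc in the 7.5 mg/kg arm was 199.5 ± 149.6 CPM (SD, n = 10), which did not pass against levodopa (log2 fold change -1.34 ± 0.33, adjusted p = 0.135).

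Csrnp1, a nuclear early gene product, had separate ranges, 6.70 to 10.5 CPM with levodopa and 4.82 to 6.67 CPM with 15 mg/kg (log2 fold change -0.61 ± 0.13, adjusted p = 0.0217). It was lost without levodopa replicate 2 or 3 (adjusted p = 0.069 and 0.0551). Gadd45g, a stress-inducible regulator of growth arrest, went from 28.2 ± 10.9 to 15.8 ± 4.00 CPM (SD, n = 5 and 10) and fell (log2 fold change -0.84 ± 0.19, adjusted p = 0.0285). It was called in 11 of the 15 fits, and it was lost without levodopa replicates 1, 2 or 3 or the 15 mg/kg replicate 9 (adjusted p up to 0.083). Vdr, the vitamin D receptor, fell steeply (log2 fold change -2.40 ± 0.48, adjusted p = 0.0217) and spread widely between levodopa animals. It was at 3.91, 3.52, 14.4, 2.06 and 30.3 CPM with levodopa and ran from 0.974 to 3.69 with a median of 2.09 CPM with 15 mg/kg, so that replicates 3 and 5 carried the difference. It was called without replicate 2 (-2.62 (adjusted p = 0.0149)). Without replicate 5 the log2 fold change was -1.54 (adjusted p = 0.0692), and without replicate 3 it was -2.28 (adjusted p = 0.0551). Sertad1, a transcriptional co-regulator, and Ier5l, of the immediate early response family, were chosen after their values were seen. They fell too (-0.59 ± 0.13 and -0.54 ± 0.13, adjusted p = 0.0217 and 0.0368) and were also called without levodopa replicate 2. Without replicate 3 both were lost (adjusted p = 0.0745 and 0.0595).

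Fos, the best known marker of neuronal activation, did not pass in edgeR's quasi-likelihood test of all 25 libraries. It was at 55.5, 27.7, 82.99, 16.2 and 38.5 CPM with levodopa and ran from 7.63 to 29.4 with a median of 16.8 CPM with 15 mg/kg, and the arms overlapped (log2 fold change -1.32 ± 0.41, adjusted p = 0.0799). Fos did pass without levodopa replicate 4 (-1.54 (adjusted p = 0.0312)), without both levodopa replicate 2 and the 7.5 mg/kg replicate 1 (adjusted p = 0.0326), in the fit of only the 2 arms (adjusted p = 0.0259) and with limma-voom (adjusted p = 0.00903). It did not pass with DESeq2, with 2 surrogate variables or without any other single library. Fosb, whose stable splice form builds up with repeated dopamine stimulation, stood at 63.03, 29.7, 51.9, 26.7 and 31.4 CPM with levodopa and between 32.99 and 84.02 with a median of 63.8 CPM with 15 mg/kg. Its fold change was positive and did not pass (log2 fold change 0.61 ± 0.21, adjusted p = 0.106), and the counts do not separate its splice forms. The mean of Fosb in the 7.5 mg/kg arm was 34.3 ± 7.57 CPM (SD, n = 10). Egr1, a zinc finger early gene, overlapped as well (log2 fold change -0.26 ± 0.17, adjusted p = 0.414). The immediate early list therefore did not move as 1 block: 26 of its 39 tested members had a negative and 13 a positive fold change, against 7045 and 7097 of all genes.

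Mature oligodendrocyte and myelin genes were the list with most called members. Of 33 tested, 12 fell and 0 rose, against 1.00% and 0.304% of all genes. All 33 had a negative fold change, against 7045 of 14142, and the median was -0.59 against 0.0007 over all genes. Among the 12 were Cnp, Mal, Ermn, Opalin, Tspan2, Ugt8, Car2, Evi2a and Nipal4, and the transcription factors Sox10 and Myrf. Summed over the list, the levodopa replicates were at 17066, 22303, 17208, 14379 and 13017 CPM. The 15 mg/kg libraries ran from 8133 to 17091 CPM with a median of 10582. Replicate 2 was the highest of all. The 15 mg/kg replicate 4, at the top of its arm, lay above levodopa replicates 4 and 5 and level with replicate 1. Without levodopa replicate 2 the list's median was -0.48 and 0 members passed, without replicate 3 it was -0.56 and 0 passed, and without replicate 4 it was -0.63 and 24 passed. These samples are dissections, and the share of white matter in each was not measured.

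Tspan2, a tetraspanin of oligodendrocytes, had the smallest p of the list, at 200.2, 302, 258, 225 and 194 CPM with levodopa and between 126 and 202 with a median of 147 CPM with 15 mg/kg (log2 fold change -0.60 ± 0.11, adjusted p = 0.0131). It was lost without levodopa replicate 2 (-0.49 (adjusted p = 0.0628)) or 3 (-0.56 (adjusted p = 0.0551)). Nipal4, a magnesium transporter family member, had the largest fall of the 12 (log2 fold change -0.92 ± 0.20, adjusted p = 0.0217), from 17.5 ± 3.94 to 9.15 ± 2.78 CPM (SD, n = 5 and 10). Opalin, a transmembrane protein of myelin, went from 192 ± 40.3 to 115 ± 25.9 CPM (log2 fold change -0.74 ± 0.16, adjusted p = 0.0217). Cnp, the myelin phosphodiesterase, fell from 902 ± 221 to 558 ± 113 CPM (log2 fold change -0.69 ± 0.17, adjusted p = 0.0383) and was kept in 4 of the 15 fits. Myrf, which switches on myelin genes, fell by 0.55 (SE 0.14, adjusted p = 0.0473) and Sox10 by 0.63 (SE 0.16, adjusted p = 0.0464) on the log2 scale. The lowest of these 12 fold changes in size was that of Ugt8, a galactolipid enzyme (log2 fold change -0.49 ± 0.12, adjusted p = 0.0383). Mbp, which encodes myelin basic protein, did not pass (-0.63 ± 0.20, adjusted p = 0.0871). Without levodopa replicate 2 the values of Nipal4, Opalin, Cnp, Myrf, Sox10 and Ugt8 were -0.82, -0.60, -0.55, -0.43, -0.54 and -0.42, with adjusted p from 0.112 to 0.211.

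Several lower genes outside the list are known from myelinating cells or their nodes and were named after their values were seen. Nfasc, which encodes neurofascins of the node of Ranvier and the paranode, had ranges that did not overlap (log2 fold change -0.45 ± 0.10, adjusted p = 0.0217). Gltp, a glycolipid transfer protein (log2 fold change -0.59 ± 0.14, adjusted p = 0.0319), and Ninj2, a ninjurin (log2 fold change -0.81 ± 0.21, adjusted p = 0.0481), were the others. Leaving out levodopa replicate 2, the 3 genes gave -0.36, -0.44 and -0.56 and none was called. Of 17 tested precursor markers Sox10 was the 1 called, against 1.00% of all genes called lower. Pdgfra, the receptor that marks precursor cells, did not pass (log2 fold change -0.17 ± 0.10, adjusted p = 0.38).

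Endothelial and blood-brain barrier genes were the other list with all members on 1 side. All 27 tested had a negative fold change, 5 fell and 0 rose, against 1.00% and 0.304% of all genes and 7045 of 14142 with a negative fold change. The median was -0.36, or -0.18 without levodopa replicate 2. The 5 were Aplnr, Sox18, Adgrl4, Slco1a4 and Slc16a1, of which Aplnr alone was called without that library and Aplnr and Sox18 without replicate 3. The levodopa libraries other than replicate 2 summed to 996 to 1087 CPM over the list and the 15 mg/kg libraries to 801 to 995 CPM. These sums, made without TMM, stood next to each other. The mean over the list of log2(CPM + 2), with TMM and centred on the 15 libraries, overlapped between the arms. It was 0.0169 in levodopa replicate 1 and 0.0192 in the 15 mg/kg replicate 4. Cldn5, a defining tight junction gene of this list, is listed at 0 in all 15 libraries.

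Sox18, a transcription factor of vessel formation, was at 13.5, 25.2, 10.6, 11.8 and 11.4 CPM with levodopa and ran from 6.87 to 10.1 with a median of 9.06 CPM with 15 mg/kg. The ranges were separate, with replicate 2 far above the other levodopa libraries (log2 fold change -0.74 ± 0.15, adjusted p = 0.0217). Its value without that library was -0.45 (adjusted p = 0.105). Slco1a4, a transporter of organic anions at the blood-brain barrier, showed the same shape, at 70.7, 137, 68.4, 74.8 and 75.1 CPM against 52.7 to 66.6 CPM (log2 fold change -0.47 ± 0.12, adjusted p = 0.0463). Without replicate 2 it was -0.23 (adjusted p = 0.249). Slc16a1, the lactate and ketone carrier MCT1, went from 52.7 ± 6.23 to 41.02 ± 5.39 CPM (log2 fold change -0.36 ± 0.094, adjusted p = 0.049) and Adgrl4, an adhesion receptor, from 14.4 ± 4.80 to 9.61 ± 0.998 CPM (log2 fold change -0.59 ± 0.13, adjusted p = 0.0267). Without replicate 2 they gave -0.34 (adjusted p = 0.172) and -0.38 (adjusted p = 0.158). Of vascular genes outside the list, named after their values were seen, Heg1, Cd93, Mmrn2 and Clec14a fell (-0.42 ± 0.094, -0.51 ± 0.12, -0.47 ± 0.11 and -0.58 ± 0.15, adjusted p = 0.0298, 0.0368, 0.0375 and 0.0439). Each of these 4 takes part in endothelial contacts or vessel growth. Their values without replicate 2 were -0.26, -0.43, -0.29 and -0.45, with none called. The adhesion proteins vinculin (Vcl, log2 fold change -0.38 ± 0.075, adjusted p = 0.0217) and talin (Tln1, log2 fold change -0.45 ± 0.11, adjusted p = 0.0383, named after its values were seen) were lower as well, and neither was called without replicate 2 (adjusted p = 0.0907 and 0.2).

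**Figure D4:**
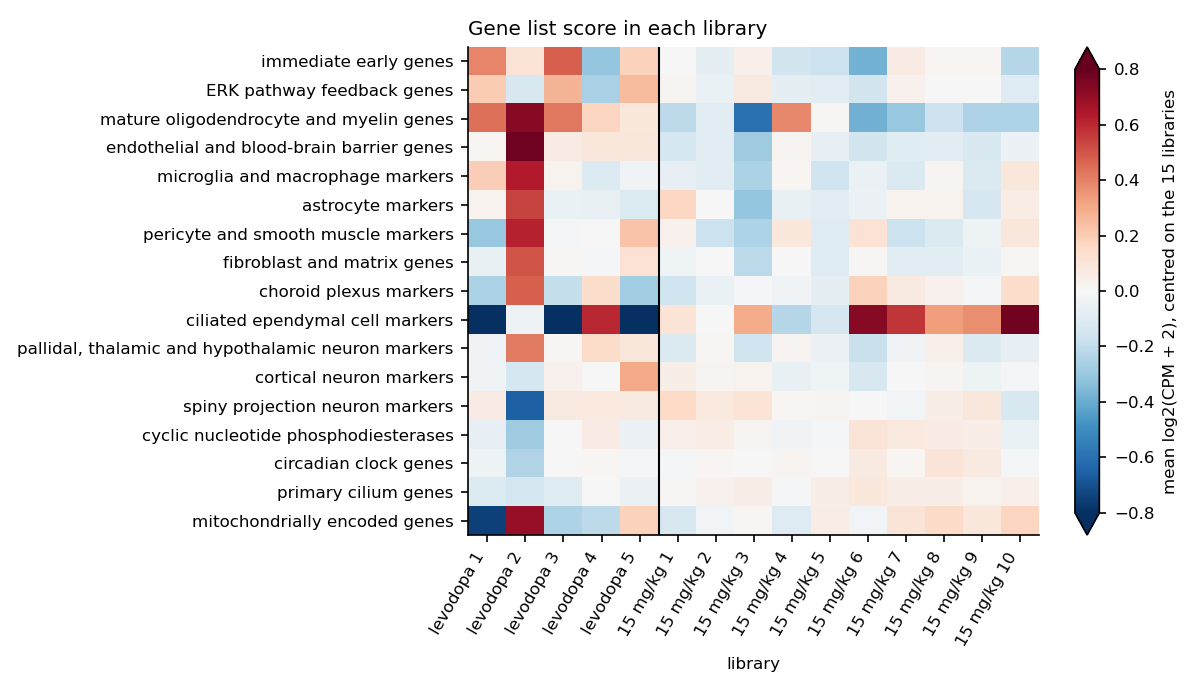
Each cell is the mean over a list's tested genes of log2(CPM + 2), centred on the 15 libraries, for the levodopa replicates left of the line and the 15 mg/kg replicates right of it, with the colour scale ending at -0.8 and 0.8. Levodopa replicate 2 is high for vascular, glial and choroid plexus lists and low for spiny projection neuron markers, and replicate 4 is low for immediate early genes.

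The other non-neuronal lists had fewer called genes. Of 20 tested microglia and macrophage markers only Gpr34, a lysophospholipid receptor, fell (log2 fold change -0.57 ± 0.12, adjusted p = 0.0267, and -0.35 (adjusted p = 0.158) without levodopa replicate 2), against 1.00% of all genes. The list median was -0.28 (-0.084 without that library). Gpr34 was called without replicate 3 (-0.65 (adjusted p = 0.0425)). Of 32 fibroblast and matrix genes Adamts4, a protease of the extracellular matrix, was the 1 that fell (log2 fold change -0.73 ± 0.15, adjusted p = 0.0217), and it gave -0.52 (adjusted p = 0.137) without replicate 2. Of 21 astrocyte markers and 17 pericyte and smooth muscle markers 0 passed, and the medians of -0.13 and -0.20 went to 0.0059 and -0.026 without replicate 2. Gfap, which rises in reactive astrocytes, varied widely, at 1411, 1746, 634, 475 and 566 CPM with levodopa and 226 to 1020.4 CPM with 15 mg/kg (log2 fold change -0.89 ± 0.38, adjusted p = 0.187). Sparcl1, a secreted protein of astrocytes and among the most abundant genes that fell, went from 1794 ± 443 to 1294 ± 172 CPM (log2 fold change -0.47 ± 0.11, adjusted p = 0.038), with -0.31 (adjusted p = 0.2) without replicate 2.

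The falls of Ttr and Slc17a6 were the steepest of the genes named here. Both are genes of neighbouring tissue, and their fold changes came mostly from 1 library. Ttr, the defining gene of the choroid plexus, was at 0, 23.4, 0.298, 0.528 and 0.106 CPM in the levodopa replicates and at most 0.487 CPM with 15 mg/kg (log2 fold change -5.11 ± 1.09, adjusted p = 0.0217). Without replicate 2 its value was -0.79 (adjusted p = 0.846). Slc17a6, the vesicular glutamate transporter of thalamic neurons, was at 0.22, 10.98, 0.239, 1.00 and 0.797 CPM with levodopa and at most 0.296 CPM with 15 mg/kg (log2 fold change -3.71 ± 0.77, adjusted p = 0.0217), and -1.53 (adjusted p = 0.361) without that library. Ngfr, the p75 neurotrophin receptor, is on neither tissue's list and fell less steeply. It was also highest in replicate 2, at 1.87, 20.05, 4.59, 2.85 and 9.03 CPM, against 0.749 to 3.95 CPM with 15 mg/kg (log2 fold change -1.95 ± 0.49, adjusted p = 0.0437, and -1.22 (adjusted p = 0.285) without that library). Levodopa replicates 3 and 5 lay above the 15 mg/kg range as well. In the choroid plexus list 1 of 10 and in the pallidal, thalamic and hypothalamic list 1 of 12 tested genes fell, against 1.00% of all genes. The medians of these lists were -0.14 and -0.26, and 0.10 and -0.16 without replicate 2. Summed over the lists, the levodopa libraries ranged over 68.7 to 129 and 93.9 to 114 CPM, and the 15 mg/kg libraries over 63.3 to 104 and 81.9 to 118 CPM.

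Markers of ciliated ependymal cells, which line the ventricle beside the striatum, were mostly positive but 0 of 14 tested passed. Their median was 1.09, with 13 of 14 positive, and it was 1.37 without levodopa replicate 2 and 1.99 without replicate 4, where 5 passed. The summed level was 37.5, 82.5, 31.6, 159.6 and 29.3 CPM in the levodopa replicates and 72.4 to 176 CPM with 15 mg/kg. Replicates 1, 3 and 5 lay below every 15 mg/kg library and replicate 4 near the top of them. In the 15 mg/kg arm replicates 1 to 5 were at 72.4 to 113.5 CPM and replicates 6 to 10 at 117 to 176 CPM. In the 7.5 mg/kg arm replicate 6 was the lowest (27.5 CPM) and replicates 7 to 10 were at 115 to 212 CPM. Levodopa has only replicates 1 to 5, and the part of this order in the list's median was not tested. How much ventricular wall each dissection held was not measured. Ccdc180, which is named for its coiled coil and stands outside the list, rose with separate ranges, 7.82 to 12.5 CPM against 15.2 to 20.6 CPM (log2 fold change 0.88 ± 0.21, adjusted p = 0.0383), and was kept in 3 of the 15 fits.

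Among the higher genes, 3 of 21 tested clock genes stood out against 0.304% of all genes. Per1 and Per2, which encode the period proteins of the clock's negative limb, and Cry1, their cryptochrome partner, rose. Per1 is also an immediate early gene and a target of cyclic AMP and glucocorticoid signalling. It was at 141, 90.3, 109.9, 129 and 119 CPM with levodopa and ran from 131 to 184 with a median of 158 CPM with 15 mg/kg, and the arms overlapped only through levodopa replicate 1 (log2 fold change 0.44 ± 0.088, adjusted p = 0.0217). Per2 was at 38.8, 37.1, 41.3, 45.3 and 37.98 CPM with levodopa and ran from 46.9 to 63.7 with a median of 58.2 CPM with 15 mg/kg, with no overlap (log2 fold change 0.52 ± 0.10, adjusted p = 0.0217). Cry1 went from 25.7 ± 2.36 to 32.3 ± 4.02 CPM (log2 fold change 0.33 ± 0.084, adjusted p = 0.0475). Without levodopa replicate 2 the values were 0.36 (adjusted p = 0.069), 0.49 (adjusted p = 0.069) and 0.31 (adjusted p = 0.163), and without replicate 3 none of the 3 was called either (adjusted p = 0.0566, 0.0551 and 0.0783). The median of the clock list was 0.049 (0.013 without replicate 2), and the time of day of each collection is not given in the sources used here.

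Per1 was also the only one of the 185 genes that differed between the doses, in a comparison of 15 with 7.5 mg/kg in which 4 genes passed in all (0.0283%). The 7.5 mg/kg mean of Per1 was 118 ± 9.68 CPM (SD, n = 10), against 159 ± 18.000 CPM (SD, n = 10) at 15 mg/kg and 118 ± 19.2 CPM (SD, n = 5) with levodopa alone. The difference of 15 from 7.5 mg/kg was 0.44 ± 0.07 on the log2 scale (adjusted p = 0.00512). For Per2 the 7.5 mg/kg mean was 54.3 ± 9.72 CPM and the test of the doses gave 0.078 ± 0.083 (adjusted p = 0.999). Against levodopa alone Per2 did not pass at 7.5 mg/kg (log2 fold change 0.44 ± 0.10, adjusted p = 0.135).

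Mchr1, the receptor for melanin-concentrating hormone, which sits in the primary cilium of neurons, was at 22.4, 18.3, 22.97, 19.6 and 26.4 CPM with levodopa and ran from 26.1 to 43.1 with a median of 30.97 CPM with 15 mg/kg. Levodopa replicate 5 reached just into the trapidil range (log2 fold change 0.55 ± 0.11, adjusted p = 0.0217, and 0.49 (adjusted p = 0.075) without replicate 2). Oprk1, the kappa opioid receptor bound by dynorphin, rose from 10.4 ± 3.14 to 16.7 ± 2.13 CPM (log2 fold change 0.68 ± 0.17, adjusted p = 0.0451), with 0.52 (adjusted p = 0.17) without replicate 2. Rgs14, a regulator that binds Gi proteins and Ras, had separate ranges, 62.7 to 79.4 CPM against 85.1 to 144 CPM (log2 fold change 0.56 ± 0.12, adjusted p = 0.0267). Trpc7, a cation channel opened by phospholipase C signalling, was also separate, 3.21 to 5.91 against 6.49 to 8.43 CPM (log2 fold change 0.57 ± 0.12, adjusted p = 0.0217). Without replicate 2 neither passed (adjusted p = 0.118 and 0.0948). Prkar1b, whose product holds protein kinase A inactive until cyclic AMP binds, also rose (log2 fold change 0.34 ± 0.085, adjusted p = 0.0437, and 0.24 (adjusted p = 0.16) without replicate 2). It was the 1 called gene of 25 in the cyclic AMP and protein kinase A list, against 0.304% of all genes called higher.

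Primary cilium genes include Mchr1. Of 37 tested 2 rose and 0 fell, against 0.304% and 1.00% of all genes, 31 were positive, against 7097 of 14142, and the median was 0.13 (0.12 without replicate 2). Tmem107, of the gate at the base of the cilium, was the other (log2 fold change 0.51 ± 0.11, adjusted p = 0.0247), with 5.49 to 8.39 CPM in one arm and 9.07 to 12.3 CPM in the other and no overlap. Wdr19, a carrier of cargo along the cilium that was named after its values were seen, also rose (log2 fold change 0.35 ± 0.085, adjusted p = 0.0383). Without levodopa replicate 2 neither was called (adjusted p = 0.0763 and 0.145). Ependymal cells bear cilia as well, and the part of their markers, given above, in these values was not tested.

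Further genes that rose included Tmem132e, a membrane protein of inner hair cells and neurons, from 29.4 ± 4.59 to 45.5 ± 8.31 CPM without overlap (log2 fold change 0.63 ± 0.13, adjusted p = 0.0217). Frmd6, an upstream member of the Hippo pathway, went from 71.04 ± 13.5 to 106 ± 18.97 CPM (log2 fold change 0.57 ± 0.12, adjusted p = 0.0217). Rdh10, which makes retinal for retinoic acid synthesis, rose (log2 fold change 0.50 ± 0.11, adjusted p = 0.0217) while Rara, a retinoic acid receptor, fell (log2 fold change -0.35 ± 0.088, adjusted p = 0.0457). Banp, a nuclear protein that binds DNA (0.32 ± 0.065), Rasgef1a, an activator of Ras family proteins (0.26 ± 0.057), Slc9a5, a sodium and proton exchanger (0.46 ± 0.11), and Ripor2, an inhibitor of RhoA (0.36 ± 0.086), had smaller rises, with adjusted p = 0.0217, 0.0285, 0.0319 and 0.0359. Some rises were in genes at low levels. Dyrk3, a kinase that dissolves stress granules, went from 1.53 ± 0.406 to 3.20 ± 0.677 CPM (log2 fold change 1.05 ± 0.26, adjusted p = 0.0457). Krt80, a keratin named after its values were seen, went from 0.16 ± 0.238 to 0.968 ± 0.374 CPM (log2 fold change 2.48 ± 0.59, adjusted p = 0.0359), and levodopa replicate 4 at 0.581 CPM lay within the trapidil range. Racgap1, which acts in cell division (0.57 ± 0.13), and Khdrbs2, a splicing regulator of neurons (0.58 ± 0.15), rose as well (adjusted p = 0.0359 and 0.0464). The most abundant genes that rose, beside Syt13, were Cpne5, a calcium-dependent membrane binding protein at 435 ± 64.4 and 529 ± 22.3 CPM (log2 fold change 0.28 ± 0.066, adjusted p = 0.0359), and Smap2, a regulator of Arf proteins at 216 ± 18.5 and 248 ± 11.8 CPM (log2 fold change 0.20 ± 0.05, adjusted p = 0.0463). Apart from Syt13, none of these genes was called without levodopa replicate 2 (adjusted p from 0.0523 to 0.172) or without replicate 3 (from 0.0551 to 0.0919).

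Efna1, a ligand of Eph receptors, fell (log2 fold change -0.74 ± 0.15, adjusted p = 0.0217), and Efna5, another such ligand, rose (log2 fold change 0.91 ± 0.23, adjusted p = 0.0471), in a list of 20 with a median of 0.074 (0.047 without levodopa replicate 2). They gave -0.61 (adjusted p = 0.0948) and 0.73 (adjusted p = 0.172) without levodopa replicate 2. Jag1, a Notch ligand, had separate ranges, 14.1 to 19.2 CPM against 9.12 to 13.7 CPM (log2 fold change -0.46 ± 0.10, adjusted p = 0.0246). Unlike most of the lower genes it was called without replicate 2 (-0.51 (adjusted p = 0.0327)), and it was lost without replicates 3 and 5 (adjusted p = 0.0669 and 0.0531). Of 31 semaphorins, plexins and neuropilins Sema4c and Sema4d fell (-0.39 ± 0.072 and -0.52 ± 0.14, adjusted p = 0.0131 and 0.0485), against 1.00% of all genes called lower. Sema4d is a known product of oligodendrocytes. Fgf9, a growth factor, had separate ranges (log2 fold change -0.37 ± 0.089, adjusted p = 0.0368). Grik4, a high-affinity kainate receptor subunit, also had separate ranges, 23.8 to 35.1 CPM against 15.6 to 23.7 CPM (log2 fold change -0.68 ± 0.14, adjusted p = 0.0217). It was the 1 called gene of 25 glutamate receptor subunits, against 1.00% of all genes called lower. The median of these subunits was 0.014 (-0.043 without replicate 2). Insig1, which restrains cholesterol synthesis when sterol is ample, fell (log2 fold change -0.39 ± 0.093, adjusted p = 0.0377), 22 of 23 cholesterol synthesis genes were negative, and their median was -0.17 (-0.095 without replicate 2). Without replicate 2, Sema4c, Sema4d, Fgf9, Grik4 and Insig1 had adjusted p = 0.0621, 0.208, 0.158, 0.0929 and 0.17. Stard9, a kinesin of dividing cells, and Micall1, a protein of recycling endosomes, fell (-0.58 ± 0.11 and -0.47 ± 0.092, adjusted p = 0.0146 and 0.0217), with -0.49 (adjusted p = 0.0682) and -0.39 (adjusted p = 0.0791) without replicate 2. Prss35, a protease-like protein at low levels, went from 2.39 ± 0.671 to 0.913 ± 0.388 CPM (log2 fold change -1.38 ± 0.31, adjusted p = 0.0298), with -1.39 (adjusted p = 0.0907) without it.

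**Figure D5:**
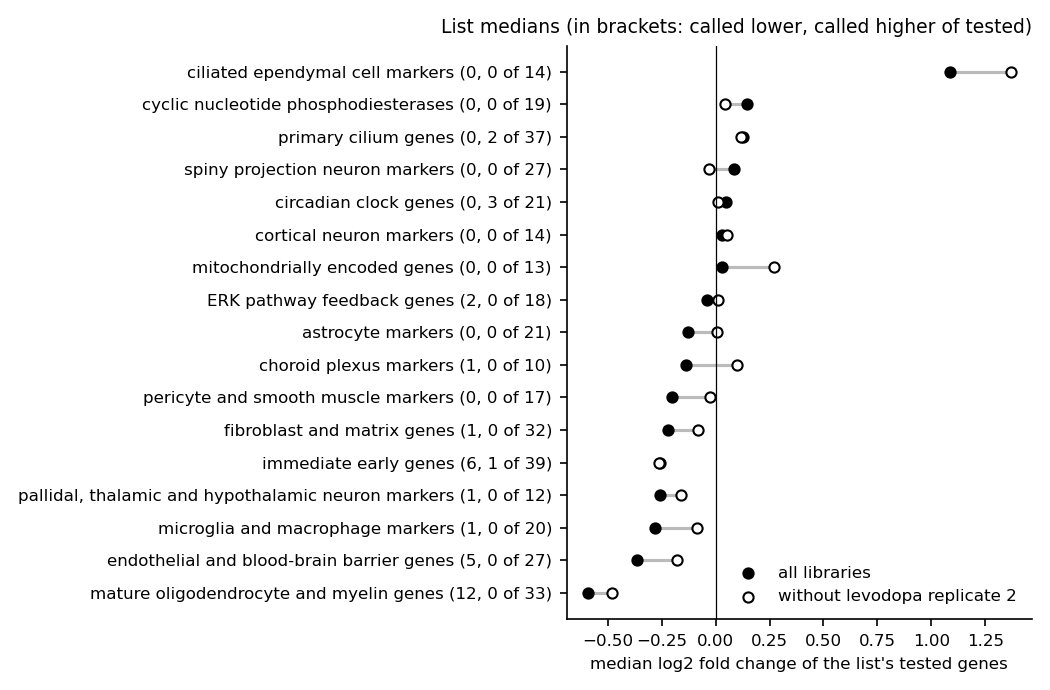
Points are the median log2 fold change of each list's tested genes for 15 mg/kg against levodopa, with all libraries (filled) and without levodopa replicate 2 (open), and brackets give the members called lower and higher of those tested. Without that library the immediate early median moves little. The oligodendrocyte median goes from -0.59 to -0.48, with 0 of its members still called. The medians of the vascular, microglia and astrocyte lists move to nearer 0.

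The gene families that trapidil is known to act on showed 1 called gene. Pdgfb, the B chain of PDGF, was at 20.1, 31.95, 22.1, 20.002 and 22.8 CPM with levodopa and ran from 13.6 to 20.05 with a median of 16.7 CPM with 15 mg/kg. Replicate 2 was far above the others, and the lowest levodopa libraries met the highest trapidil library (log2 fold change -0.46 ± 0.10, adjusted p = 0.0282, and -0.33 (adjusted p = 0.158) without replicate 2). It was the only called gene of 15 tested in the list of PDGF and related ligands and receptors, against 1.00% of all genes called lower. The median of that list was -0.17 (-0.04 without replicate 2). The A chain Pdgfa (log2 fold change -0.035 ± 0.10, adjusted p = 0.893) and the receptor of pericytes Pdgfrb (log2 fold change -0.20 ± 0.11, adjusted p = 0.302) did not pass. Of 19 cyclic nucleotide phosphodiesterases 0 passed and 17 were positive, with a median of 0.15, or 0.046 without replicate 2. Pde10a, the most typical of spiny projection neurons, was at 229 CPM in replicate 2 and 685 to 815 CPM in the other levodopa libraries, and at 516 to 821 CPM with 15 mg/kg (log2 fold change 0.083 ± 0.17, adjusted p = 0.827). Its sign turned without replicate 2 (-0.13 (adjusted p = 0.609)). Pde1b, a calcium-stimulated phosphodiesterase of the same neurons, had the same low library (log2 fold change 0.17 ± 0.10, adjusted p = 0.348). In the prostanoid list 0 of 15 passed, and the median of -0.088 turned to 0.029 without replicate 2.

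Dopamine receptors and the peptides of the spiny projection neurons did not pass either. Drd1 was at 213 ± 61.9 CPM with levodopa and 229 ± 22.8 CPM with 15 mg/kg (log2 fold change 0.10 ± 0.13, adjusted p = 0.722), and Drd2 at 453 ± 95.6 and 483 ± 40.6 CPM (log2 fold change 0.093 ± 0.093, adjusted p = 0.619). Without replicate 2 both fold changes turned slightly negative (-0.066 and -0.022). Pdyn, the dynorphin precursor of D1 neurons and a marker of the exaggerated levodopa response, was at 211, 199, 318, 223 and 509 CPM with levodopa, with replicates 3 and 5 high. With 15 mg/kg it ran from 179.5 to 295 with a median of 231 CPM (log2 fold change -0.30 ± 0.21, adjusted p = 0.449). Penk, the enkephalin precursor of D2 neurons, and Tac1, the substance P precursor of D1 neurons, overlapped between the arms (0.01 ± 0.14 and 0.18 ± 0.11, adjusted p = 0.98 and 0.363). In the lists of 13 dopamine genes and 27 spiny projection neuron markers 0 passed, with medians of 0.093 and 0.083, which went to 0.021 and -0.032 without replicate 2. In that of 18 peptides and opioid receptors only Oprk1 did, which rose, against 0.304% of all genes called higher.

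Lists with 0 called members and medians near 0 included 83 cytosolic ribosomal protein genes (-0.076), 88 nuclear genes of oxidative phosphorylation (-0.054), 76 potassium channel subunits (-0.025) and 17 heat shock genes (0.10). Without levodopa replicate 2 these medians were 0.053, 0.0078, -0.064 and 0.056, so the first and second turned sign. Of 19 GABA receptor subunits 0 passed and 15 were positive (median 0.16, or 0.089 without that library). Of 14 cortical and 16 interneuron markers 0 passed, with medians of 0.032 and -0.017, or 0.054 and -0.055 without it. The 13 mitochondrially encoded genes had a median of 0.03, which was 0.27 without levodopa replicate 2, and 0 passed. Some genes that every cell uses, such as Rpl8 and Ndufa1, are listed at 0 in all 15 libraries, so a listing at 0 is not read here as absence.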

How the data were processed

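Polyadenylated RNA of 25 striata was sequenced, 1 library per animal. The deposited table gives raw read counts for 28909 gene names. The reads went through FastQC, STAR and HTSeq on Rnor_6.0, per the submitters' processing notes. Versions, annotation and strand setting are not given in the sources used here, so near-identical copies are uncertain, as are genes that overlap or lie antisense to each other. Of the gene names, 9462 have a count of 0 in every library.

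edgeR (4.0.16, R 4.3.3) kept 14142 genes by filterByExpr, scaled libraries by TMM and fitted a quasi-likelihood model with arm as the factor to all 25 libraries. Each test was two-sided and adjusted by Benjamini and Hochberg's method over all genes, with 0.05 as threshold, and gives the adjusted p of every gene. Errors after ± are standard errors for log2 fold changes and SD for CPM. Those standard errors and the p values rest on 1 spread per gene shared by all arms. Where the levodopa libraries spread more widely than the trapidil libraries, they can understate the uncertainty of the levodopa mean. Alternatives used DESeq2 1.42.0, limma 3.58.1 and sva 3.50.0, other scalings, filters and thresholds, and left out each of the 15 libraries in turn. The edgeR step was tested on simulated counts with the same spread for every gene and library and with no library standing apart. That test does not cover a deviating library or arms of unequal spread, as found here. The 15 libraries of the comparison and the 48 gene lists were chosen with earlier results of these data known. Genes were named if called in every fit without 1 library, among the 15 called genes with the smallest p or the 10 with the largest fold change in a direction at a mean of at least 1 CPM, a called list member, among the 3 most abundant called in a direction, or on a set list of dopamine, peptide, early, PDGF and phosphodiesterase genes; Slc6a3 of that list had 1 read in the 15 libraries. A further 13 genes were picked once their values had been seen, as the text says of each. One gene that the rule names is not reported here. Libraries of an arm did not agree within sampling noise (lowest chi-square per degree of freedom 12.0 with levodopa and 4.83 with 15 mg/kg, over genes with at least 20 reads). Libraries are labelled as separate samples of randomised animals. No batch is given in the sources used here. Sequence coordinates are on GRCr8, not on the build of the counts.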

Additional observations from a re-analysis of the deposited data

Results flagged for a closer look

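Each named gene was examined for a library far from the rest of its arm by Dixon's test. Of 206 sets of values, most of them a gene in 1 arm, 22 stood out. Chance alone gives about 1 in 20 only where genes are chosen without regard to their values. Most of the named genes were called against the same levodopa libraries, and a call can rest on 1 far library, as for Ttr. That rate therefore does not apply here, and whether 22 is more than chance gives was not tested. Of the 22, 13 were values of levodopa replicate 2, in CPM. It was far above the other levodopa libraries for Adamts4 (99.1), Aplnr (7.65), Gpr34 (25.2), Heg1 (56.9), Pdgfb (31.95), Pdgfra (126), Slc17a6 (10.98), Slco1a4 (137), Sox18 (25.2) and Ttr (23.4), which are mostly genes of vessels, glia and neighbouring tissue, and far below them for Pde10a (229), Pde1b (431) and Rgs14 (62.7). The same library has the low spiny projection neuron markers and the high mitochondrial share given above, and the part of either in these values was not tested. The 15 mg/kg replicate 4 was far above its arm for the oligodendrocyte genes Cnp (844), Evi2a (65.99) and Nipal4 (15.4) and for Ninj2 (17.5).

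Single values were those of Tmem132e, high in the 15 mg/kg replicate 6 (65.8), and Penk, low in the same library (2664). Slco1a4 was low in the 15 mg/kg replicate 3 (52.7). Krt80 was high in levodopa replicate 4 (0.581) and Slc9a5 in levodopa replicate 5 (29.4).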

How the results depend on the processing

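The counts of 142 lower and 43 higher genes were close to those with RLE or upper-quartile scaling or a filter of 1 CPM in 5 libraries. Without a filter on low counts 97 and 28 passed, in a larger set of tested genes. The fit of only the 2 arms gave 322 and 126, DESeq2 434 and 221, limma-voom with quality weights 417 and 298, a threshold of 0.10 gave 590 and 272, and 2 surrogate variables 11 and 1. The cause of these differences was not tested. Leaving out 1 library gave 8 to 515 lower and 1 to 379 higher genes. Leaving out both levodopa replicate 2 and the 7.5 mg/kg replicate 1, chosen after seeing the data, gave 57 and 19. With the replicate block, 0 lower and 0 higher genes passed. For the 5 numbers examined, libraries with the same number did not deviate together (correlations from -0.415 to 0.197, and 0 of 5 numbers best matched by itself). Numbers above 5 have no levodopa partner and were not examined, so a shared order or batch was not tested. The ependymal sums given above were higher at most of these numbers in the trapidil arms. Why no gene passed with the block was not tested either.

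No called gene among those named changed sign. Of the genes that did not pass, signs turned for these log2 fold changes, whose cause was not tested. With 2 surrogate variables Gfap gave 0.305, Tac1 -0.0017, Drd1 -0.0511 and Pdgfa 0.168. With limma-voom Drd1 gave -0.0231, Pde10a -0.061, Pdgfa 0.0442 and Penk -0.078. Without both levodopa replicate 2 and the 7.5 mg/kg replicate 1, Pdgfra gave 0.0197, Drd2 -0.0223, Drd1 -0.0663, Pde10a -0.131, Pdgfa 0.0353 and Penk -0.0876. Leaving out 1 library in turn gave -0.226 to 0.0197 for Pdgfra, -0.0223 to 0.176 for Drd2, -0.0661 to 0.189 for Drd1, -0.13 to 0.181 for Pde10a, -0.0899 to 0.0395 for Pdgfa and -0.103 to 0.107 for Penk, with levodopa replicate 2 at the end that turned for Pdgfra, Drd2, Drd1 and Pde10a. The exact permutation p of the mitochondrial share ran from 0.0400 to 0.959 over these fits (0.691 with all libraries), and the difference of means turned without levodopa replicate 1 (p = 0.573).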
